A study of Mus musculus with 16 samples.

Results

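The experiment described here asked what the loss of Pbrm1 adds to the loss of Vhl in the mouse kidney. It set 4 arrays of double mutants against 4 arrays of Vhl mutants, which are 8 of the 16 arrays of the series, and compared all 22180 annotated genes. Double mutants carried floxed (loxP-flanked) alleles of both Vhl and Pbrm1 together with Ksp-Cre. Vhl mutants carried floxed Vhl with Ksp-Cre, so that both groups share the Vhl deletion and the Cre transgene and differ by the floxed Pbrm1 alleles. To see whether Pbrm1 loss acts alike where Vhl is intact, 4 arrays of Pbrm1 mutants (floxed Pbrm1 with Ksp-Cre) and 4 of wild-type mice were used as well. All mice were 3 months old, were fed a normal diet and gave total RNA of kidney cortex. The labels give all 3 mutant groups the same mixed strain (C57BL/6, BALB/c and 129), and the wild-type mice as C57BL/6. Ksp-Cre is driven by the regulatory sequence of Cdh16, a cadherin of tubule epithelium, so blood vessels, fibroblasts and immune cells of the cortex keep both genes.

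Vhl encodes the subunit of a ubiquitin ligase that recognises hydroxylated hypoxia-inducible factors (HIF) and sends them to the proteasome; without it these factors are stable in normal oxygen and drive genes of glycolysis, iron and pH balance and blood vessel growth. Pbrm1 encodes BAF180, the bromodomain protein that defines PBAF, a form of the SWI/SNF chromatin remodeler that moves nucleosomes at promoters and enhancers. Both genes are often lost in clear cell renal cell carcinoma in people, VHL usually first, and the stated aim of the study concerned early expression changes that could matter for that tumor.

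Whether the 4 arrays of a group are 4 animals is not given by the labels. Each description holds a number, and a group has only 2 numbers, so p-values measure a spread between arrays that may be partly technical. Double mutant replicates 2 and 3 have the same description, although replicate 3 was most alike replicate 4 (Pearson r = 0.994 across probe sets). Vhl mutant arrays have the highest description numbers, and if these mark a batch, batch and genotype cannot be told apart. The probe sets of the deleted genes do not check the genotypes: Pbrm1 measured 8.14, 8.19, 8.17 and 8.02 (log2 expression) in double mutants against 8.05, 8.05, 8.10 and 8.33 in Vhl mutants, and its log2 fold change was -0.01 ± 0.07 SE (adjusted p = 0.966). Vhl, deleted in both groups, also did not pass (log2 fold change -0.06 ± 0.10 SE, adjusted p = 0.798). Each has 1 probe set, whose place relative to the deleted exons is not given in the sources used here, and cells without Cre add to both. Y-linked Eif2s3y, Kdm5d and Uty were well above background in all 8 arrays and Xist, which silences the inactive X chromosome, was below it.

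Between double and Vhl mutants 1408 of 22180 genes (6.35%) differed at an adjusted p under 0.05 (limma). Of these, 842 (3.8%) rose in double mutants and 566 (2.55%) fell, and 408 (1.84%) changed at least 1.5-fold, 224 higher and 184 lower. With quantile normalization the balance was 719 higher and 779 lower, so 48.0% of calls were higher in place of 59.8%. The median log2 fold change of all genes was -0.01 and the median standard error of a gene was 0.12. The lists of genes for pathways and cell types described below are set against that background: the tubular injury list had 15 of 30 members higher and 0 lower, and the intercalated cell list 8 of 18 lower and 1 higher, while the podocyte and the smooth muscle and renin cell lists had 0 called members by limma (1 of 7 and 2 of 8 at an unadjusted p under 0.05).

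**Figure D1:**
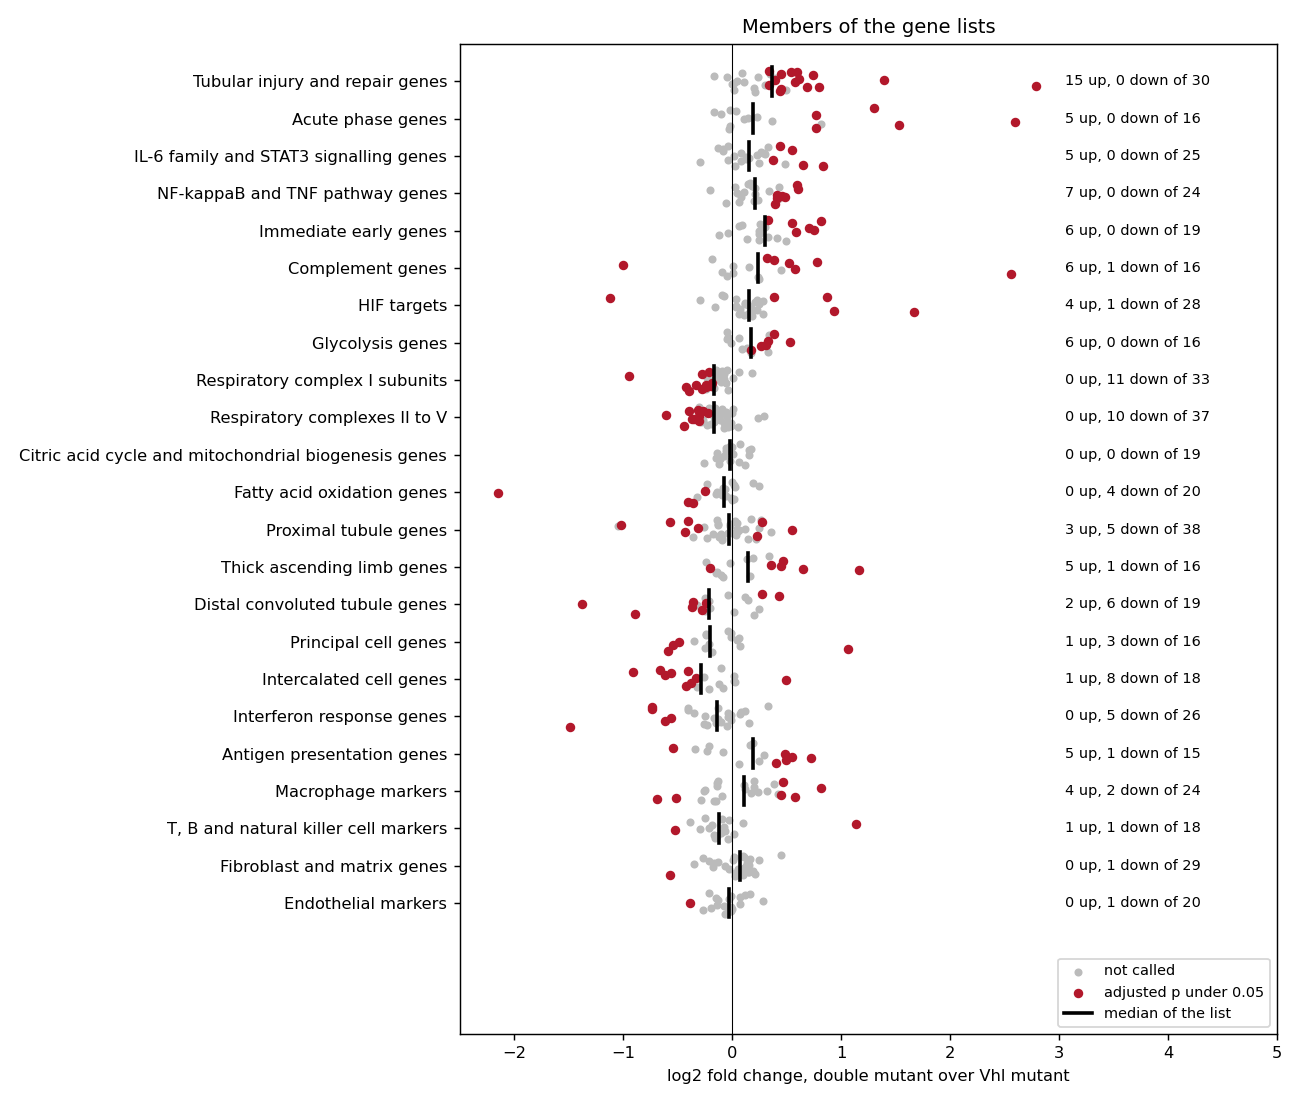
Log2 fold change of each list member, double mutant over Vhl mutant (horizontal axis), by gene list (vertical axis); red points passed an adjusted p of 0.05, grey points did not, and the black bar is the list median. Of the lists drawn, the tubular injury list has the highest median, 0.37, and the intercalated cell list the lowest, -0.29, while the citric acid cycle list is centred near 0.

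Of 30 genes of tubular injury 15 rose and 0 fell. Without double mutant replicates 1 and 2 together 8 were called, and without replicates 1, 2 and 3 of that group 4. Havcr1 encodes KIM-1, a phosphatidylserine receptor that injured proximal tubule cells put on their surface. It measured 8.64, 8.79, 9.06 and 9.67 in double mutants against 6.91, 6.47, 6.24 and 5.51 in Vhl mutants. No array of one group reached the other, but the rule for naming the largest rises required this. Havcr1 rose 6.88-fold (2.78 ± 0.48 SE on the log2 scale, adjusted p = 0.000814). In Pbrm1 mutants it had 7.02, 7.37, 4.77 and 4.67, so arrays of the same genotype also split widely by description number. Lcn2, the iron-scavenging lipocalin NGAL of stressed tubules, had 8.65, 8.48, 8.54 and 9.17 in double mutants and 7.79, 7.30, 7.31 and 6.95 in Vhl mutants, a rise of 2.63-fold (1.39 ± 0.17 SE, adjusted p = 2.16e-05). The cell cycle inhibitor Cdkn1a (0.79 ± 0.12 SE) and the chaperone clusterin, Clu (0.69 ± 0.11 SE), rose too. The list median was 0.37, against -0.01 for all genes, and 27 of the 30 members had a positive log2 fold change. Of 11 released or surface markers 7 rose, of 12 keratins and cytoskeletal genes 5, and of 7 regulators and growth factors 3.

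**Figure D2:**
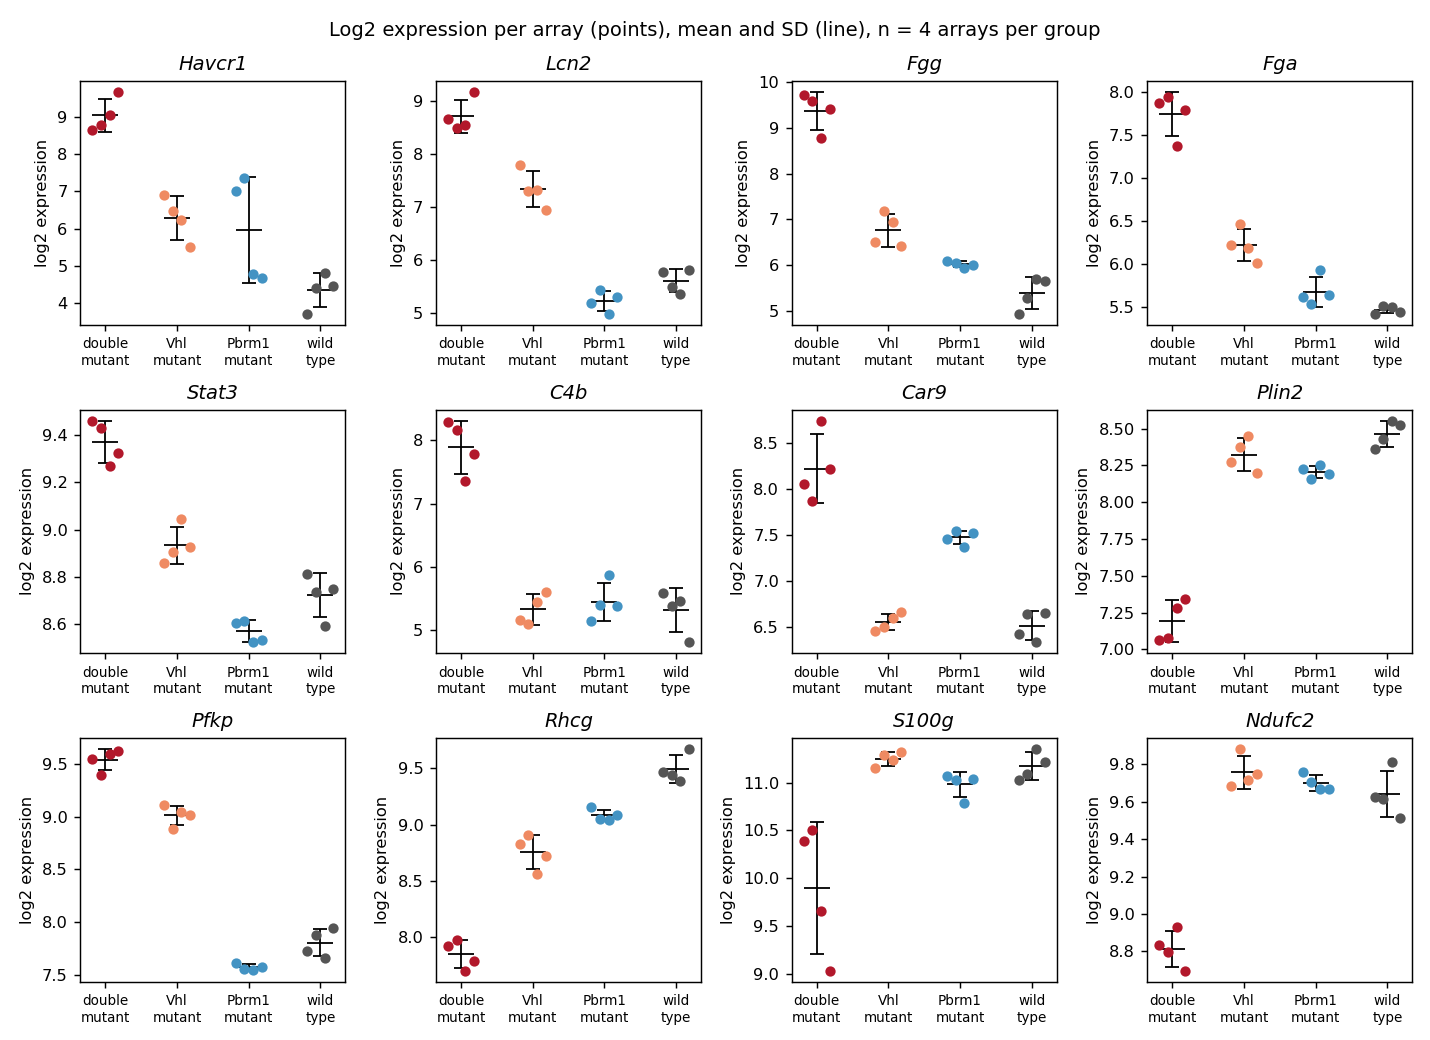
Log2 expression of 12 genes in each of the 16 arrays (points) by genotype, with the mean and SD of 4 arrays. Havcr1, Lcn2, Fgg, Fga, Stat3, C4b, Car9 and Pfkp are higher in every double mutant array than in any Vhl mutant array, and Plin2, Rhcg, S100g and Ndufc2 are lower.

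Acute phase proteins, which liver and injured epithelium secrete under signals of the interleukin 6 family through the receptor subunit gp130 and the transcription factor STAT3, gave the next group. Of 16 measured members 5 rose and 0 fell, with a list median of 0.19. The fibrinogen gamma chain Fgg measured 9.70, 9.57, 8.78 and 9.39 in double mutants against 6.52, 7.18, 6.95 and 6.43 in Vhl mutants. That is a gap between the groups of more than 1 log2 unit, and the rise was 6.04-fold (2.59 ± 0.20 SE, adjusted p = 5.61e-08). The alpha chain Fga had 7.88, 7.94, 7.37 and 7.79 in double mutants and 6.22, 6.46, 6.19 and 6.01 in Vhl mutants, a rise of 2.89-fold (1.53 ± 0.13 SE, adjusted p = 1.08e-07). Double mutant replicate 3 was the lowest of its group for both chains. The third chain, Fgb, chosen for mention after its values were seen, had 5.94, 6.00, 4.75 and 6.12 in double mutants and 5.37, 5.60, 4.23 and 4.41 in Vhl mutants. Its groups overlapped and it did not pass (0.82 ± 0.31 SE, adjusted p = 0.134). It passed without double mutant replicate 3 (adjusted p = 0.0141), without Vhl mutant replicates 1 and 2 (adjusted p = 0.00978) and without the arrays of highest adipose median (adjusted p = 0.00421). Cp, the copper-carrying ferroxidase ceruloplasmin (0.77 ± 0.10 SE), and the protease inhibitor Serpina3n (1.30 ± 0.26 SE, adjusted p = 0.0031) rose. Haptoglobin, Hp, was not called (0.37 ± 0.25 SE, adjusted p = 0.465), nor was the lipopolysaccharide-binding protein Lbp (0.23 ± 0.14 SE, adjusted p = 0.407).

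In the signalling list itself, 5 of 25 members rose and 0 fell, with a median of 0.15. Stat3 had 9.46, 9.43, 9.27 and 9.32 in double mutants against 8.86, 8.91, 9.04 and 8.93 in Vhl mutants, a rise of 1.35-fold (0.43 ± 0.06 SE, adjusted p = 0.000209). Osmr, the oncostatin M receptor that pairs with gp130, rose (0.55 ± 0.10 SE, adjusted p = 0.0021), as did Bcl3, a nuclear cofactor of NF-kappaB p50 and p52 dimers that STAT3 induces (0.84 ± 0.13 SE, adjusted p = 0.000396). By role, 0 of 6 ligands, 1 of 5 receptors, 1 of 4 transducers and 3 of 10 targets and feedback genes rose. The shared receptor subunit Il6st (0.13 ± 0.05 SE, adjusted p = 0.13) and the kinase Jak1 (0.01 ± 0.05 SE, adjusted p = 0.937) did not pass.

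The promoters of the fibrinogen chains are shown because these secreted proteins include the largest rise of the acute phase list, and they were searched for TTCNNNGAA, the palindrome that STAT3 binds. Each sequence is RefSeq's (GRCm38.p6), runs from 250 bases before to 50 bases after the annotated start, and has the match in capitals. The 3 genes lie next to each other on chromosome 3.
Fga, chr3:83025903-83026202, plus strand: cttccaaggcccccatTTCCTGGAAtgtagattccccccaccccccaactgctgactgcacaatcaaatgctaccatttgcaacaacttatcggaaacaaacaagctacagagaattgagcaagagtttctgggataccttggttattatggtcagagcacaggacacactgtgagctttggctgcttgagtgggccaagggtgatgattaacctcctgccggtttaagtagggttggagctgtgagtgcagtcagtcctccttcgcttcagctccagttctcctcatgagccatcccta
Fgb, chr3:83049814-83050113, minus strand: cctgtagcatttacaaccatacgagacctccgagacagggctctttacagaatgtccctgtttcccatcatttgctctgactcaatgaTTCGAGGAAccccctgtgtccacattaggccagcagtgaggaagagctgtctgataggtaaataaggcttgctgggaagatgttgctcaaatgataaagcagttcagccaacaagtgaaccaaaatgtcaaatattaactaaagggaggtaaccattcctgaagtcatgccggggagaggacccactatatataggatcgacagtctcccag
Fgg, chr3:83007474-83007773, plus strand: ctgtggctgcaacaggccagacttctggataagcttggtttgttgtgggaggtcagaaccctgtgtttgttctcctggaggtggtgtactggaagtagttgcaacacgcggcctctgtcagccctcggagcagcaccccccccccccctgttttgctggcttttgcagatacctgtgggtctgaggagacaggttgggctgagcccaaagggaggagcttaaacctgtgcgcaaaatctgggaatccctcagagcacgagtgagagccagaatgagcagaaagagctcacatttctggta
Fga and Fgb each have 1 match and Fgg, the chain of the largest rise, has none in this window. The pattern, with N for any base, is the same on both strands and occurs in 1367 of 16990 promoters of compared genes (8.05%). It occurs in 4 of 13 acute phase promoters (30.8%), in 8.04% of the 647 promoters of genes that rose and in 8.84% of the 441 of genes that fell, so over all called genes the share was close to that of all promoters.

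Among complement genes 6 of 16 rose and 1 fell, with a median of 0.24. C4b, the fourth component of the cascade, measured 8.28, 8.15, 7.36 and 7.78 in double mutants against 5.16, 5.10, 5.45 and 5.61 in Vhl mutants, a rise of 5.90-fold (2.56 ± 0.21 SE, adjusted p = 9.76e-08). Cfb, factor B of the alternative pathway, rose by less (0.52 ± 0.07 SE, adjusted p = 6.28e-05). Cd59a, the membrane protein that blocks assembly of the lytic pore, fell, with 7.64, 7.48, 7.31 and 7.47 in double mutants and 8.27, 8.54, 8.55 and 8.54 in Vhl mutants (-1.0 ± 0.08 SE, adjusted p = 1.3e-07). Without double mutant replicate 1, or without Vhl mutant replicate 2, the count of called complement genes was 4 in place of 7.

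The NF-kappaB and tumor necrosis factor pathway had 7 of 24 members higher and 0 lower, with a median of 0.21. Tnip1, a brake on the pathway that is also one of its targets (0.59 ± 0.11 SE, adjusted p = 0.002), the subunit gene Nfkb2 (0.41 ± 0.09 SE, adjusted p = 0.0065) and Tnfrsf12a, the receptor of the cytokine TWEAK (0.61 ± 0.15 SE, adjusted p = 0.0159), were among them. Tnfrsf12a had 7.33, 7.73, 7.03 and 6.92 in double mutants against 6.81, 6.73, 6.58 and 6.41 in Vhl mutants, and its call ended without double mutant replicates 1 and 2 together (adjusted p = 0.174). Of 24 chemokines 4 rose and 2 fell. The transmembrane chemokine Cxcl16 (0.41 ± 0.06 SE, adjusted p = 0.000172) and the monocyte attractant Ccl9 (0.63 ± 0.12 SE, adjusted p = 0.0027) rose, and Cxcl14 fell (-0.51 ± 0.09 SE, adjusted p = 0.0018). Immediate early genes, which cells switch on within minutes of a growth or stress signal, had 6 of 19 members higher and 0 lower, with a median of 0.30. They included the orphan receptor Nr4a1 (0.81 ± 0.16 SE, adjusted p = 0.0029) and Jun, a subunit of AP-1 (0.71 ± 0.16 SE, adjusted p = 0.007). Jun lost its call without double mutant replicates 1 and 2 together (adjusted p = 0.0758). Double mutant replicate 3 was the lowest of its group for both genes.

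Among HIF targets, 4 of 28 rose and 1 fell, with a median of 0.15 and 23 members on the positive side. Car9, the membrane carbonic anhydrase that acidifies the outside of hypoxic cells, measured 8.05, 7.87, 8.74 and 8.22 in double mutants against 6.46, 6.51, 6.60 and 6.66 in Vhl mutants. The rise was 3.17-fold (1.66 ± 0.14 SE, adjusted p = 1.33e-07), and the Vhl mutant level was close to the wild-type mean of 6.51 ± 0.16 (SD, n = 4). These values are from the brighter of 2 Car9 probe sets. Among the alternatives, which include averaged probe sets, the log2 fold change of Car9 was as low as 1.02 and stayed called. No choice of arrays gives so small a value, so it comes from the average. The dimmer probe set of Car9 therefore changed less than the brighter one. The 2 probe sets were not tested one by one. Plod2, a collagen lysyl hydroxylase (0.87 ± 0.10 SE, adjusted p = 1.36e-05), and Edn1, the vasoconstrictor endothelin 1 (0.93 ± 0.18 SE, adjusted p = 0.0023), rose. The glucose transporter Slc2a1 rose by less (0.39 ± 0.10 SE, adjusted p = 0.0195), and was no longer called without double mutant replicates 1 or 2 or Vhl mutant replicates 2 or 4 (adjusted p between 0.0554 and 0.0626) and with the mean of its probe sets (adjusted p = 0.544). Plin2, which coats lipid droplets, fell: it had 7.06, 7.08, 7.28 and 7.35 in double mutants and 8.27, 8.37, 8.45 and 8.20 in Vhl mutants, 2.18-fold lower (-1.12 ± 0.08 SE, adjusted p = 1.23e-08). Of the 2 most abundant members that were not called, the angiogenic factor Vegfa was at -0.09 ± 0.05 SE (adjusted p = 0.333) and the stress gene Ndrg1 at 0.25 ± 0.12 SE (adjusted p = 0.262). In Vhl mutants Ndrg1 had 12.89, 12.91, 12.18 and 12.28, and without replicates 1 and 2 of that group it was called (0.58, adjusted p = 7.78e-06). By role, 2 of 14 metabolic and pH genes rose and 1 fell, 2 of 9 secreted and vascular factors rose, and 0 of 5 genes of oxygen sensing were called. Arnt2, a partner subunit that pairs with HIF alpha chains, rose (0.64 ± 0.08 SE, adjusted p = 1.41e-05), the 1 called member of 13 genes of the VHL complex and HIF subunits.

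Car9 and Plin2 are the HIF targets of the largest changes in opposite directions, and their promoters (RefSeq, GRCm38.p6, the same window) are shown with the core of the hypoxia response element, ACGTG on either strand, in capitals. On the strand printed, a match to the other strand reads CACGT.
Car9, chr4:43506776-43507075, plus strand: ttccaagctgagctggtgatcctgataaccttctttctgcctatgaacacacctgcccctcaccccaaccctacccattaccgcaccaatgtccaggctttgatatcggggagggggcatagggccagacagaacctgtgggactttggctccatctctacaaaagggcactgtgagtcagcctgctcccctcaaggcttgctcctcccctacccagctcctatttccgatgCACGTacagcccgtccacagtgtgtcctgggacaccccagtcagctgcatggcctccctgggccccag
Plin2, chr4:86670010-86670309, minus strand: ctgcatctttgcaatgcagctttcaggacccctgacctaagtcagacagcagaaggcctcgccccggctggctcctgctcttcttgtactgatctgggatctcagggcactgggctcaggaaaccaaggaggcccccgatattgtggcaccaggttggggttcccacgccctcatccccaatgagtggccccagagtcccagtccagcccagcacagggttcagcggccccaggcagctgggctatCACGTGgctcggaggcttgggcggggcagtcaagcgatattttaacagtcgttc
Car9 has 1 match and Plin2 has 2 that overlap in CACGTG, which reads the same on both strands. The core occurs in 13 of 21 HIF target promoters (61.9%) and in 21.3% of all 16990; among called genes it was in 20.7% of promoters of those that rose and 20.4% of those that fell. A gene that rose and a gene that fell both hold it.

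Glycolysis genes, many of them HIF targets, had 6 of 16 members higher and 0 lower, with a median of 0.17. Pfkp, the platelet form of phosphofructokinase, had 9.55, 9.40, 9.59 and 9.63 in double mutants against 9.11, 8.88, 9.04 and 9.02 in Vhl mutants, a rise of 1.45-fold (0.53 ± 0.07 SE, adjusted p = 0.000102). The abundant enzymes Pgk1 (-0.05 ± 0.05 SE, adjusted p = 0.65) and Tpi1 (-0.05 ± 0.05 SE, adjusted p = 0.63) were not called. The count moved with single arrays: 2 members were called without double mutant replicate 1 or Vhl mutant replicate 2, 3 without any 1 of the other double mutant replicates, and also 3 when the arrays of a description number were averaged.

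The called subunits of the mitochondrial respiratory chain were all lower in double mutants. Of 33 complex I subunits, which pass electrons from NADH into the chain, 11 fell and 0 rose, with a median of -0.17 and 3 members on the positive side. Of 37 members of complexes II to V, 10 fell and 0 rose, also with a median of -0.17. The complex I subunit Ndufc2 measured 8.84, 8.80, 8.93 and 8.70 in double mutants against 9.68, 9.88, 9.72 and 9.75 in Vhl mutants, 1.93-fold lower (-0.95 ± 0.07 SE, adjusted p = 2.64e-08). The others moved by less: the complex I subunit Ndufa2 by -0.42 ± 0.07 SE (adjusted p = 0.0011), the cytochrome oxidase subunits Cox4i1 by -0.37 ± 0.06 SE and Cox5a by -0.35 ± 0.06 SE, and the ATP synthase subunit Atp5e by -0.44 ± 0.08 SE (adjusted p = 0.0014). Abundant members that were not called included Ndufb9 of complex I (-0.11 ± 0.05 SE, adjusted p = 0.167) and the catalytic ATP synthase chain Atp5b (-0.04 ± 0.04 SE, adjusted p = 0.665). By complex, 4 of 13 members of complexes II and III, 4 of 9 of complex IV and 2 of 15 of ATP synthase fell. Genes of the citric acid cycle and of mitochondrial biogenesis had 0 of 19 called by limma, 5 at an unadjusted p under 0.05, and a median of -0.02. The complex I count was 7 without double mutant replicates 1 or 2 or Vhl mutant replicate 2, 6 without double mutant replicate 4, 7 with each array centred on its median and 3 with arrays averaged per description number. The median stayed between -0.21 and -0.12 in every alternative tried.

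Fatty acid oxidation genes had 4 of 20 members lower and 0 higher. Cyp4a14, a fatty acid hydroxylase under the control of PPARalpha, had 7.44, 7.45, 7.59 and 7.13 in double mutants against 10.02, 10.20, 8.90 and 9.05 in Vhl mutants, 4.44-fold lower (-2.15 ± 0.32 SE, adjusted p = 0.000184), with Vhl mutant replicates 1 and 2 above 3 and 4. The wild-type mean was 7.76 ± 0.88 (SD, n = 4), nearer to the double mutant mean of 7.41 than to the Vhl mutant mean of 9.54. The thiolase Acaa2 fell by 0.41 on the log2 scale (adjusted p = 0.0058). Scd1, the desaturase that makes monounsaturated fatty acids for storage, rose (1.09 ± 0.18 SE, adjusted p = 0.000497). In the list of lipid droplet and triglyceride genes it was 1 of 2 that rose, and Plin2 was the 1 that fell, among 20.

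Genes that mark the segments of the nephron were called in both directions. Intercalated cells, which secrete acid or base in the collecting duct, had 8 of 18 genes lower and 1 higher, with a median of -0.29. The ammonia channel Rhcg measured 7.92, 7.98, 7.70 and 7.79 in double mutants against 8.83, 8.91, 8.56 and 8.72 in Vhl mutants, 1.88-fold lower (-0.91 ± 0.08 SE, adjusted p = 4.74e-07). The oxoglutarate receptor Oxgr1 (-0.61 ± 0.09 SE, adjusted p = 0.0003) and the proton pump subunit Atp6v1b1 (-0.42 ± 0.08 SE, adjusted p = 0.002) fell. Foxi1, the transcription factor that specifies these cells, rose: it had 7.95, 7.98, 8.56 and 8.30 in double mutants and 7.81, 7.85, 7.51 and 7.68 in Vhl mutants (0.49 ± 0.11 SE, adjusted p = 0.0106), and was no longer called without double mutant replicates 3 and 4 together (adjusted p = 0.158). In bulk cortex, fewer cells of a type and less RNA per cell cannot be told apart, here and in all segments below.

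Distal convoluted tubule genes had 6 of 19 lower and 2 higher, with a median of -0.21. S100g, the small calcium carrier calbindin-D9k, had 10.39, 10.51, 9.66 and 9.04 in double mutants against 11.15, 11.29, 11.23 and 11.32 in Vhl mutants, 2.61-fold lower (-1.38 ± 0.21 SE, adjusted p = 0.000264), and double mutant replicates 3 and 4 were the lowest. Calb1, the larger calcium carrier calbindin-D28k, fell likewise (-0.89 ± 0.15 SE, adjusted p = 0.000695). Klhl3, which targets WNK kinases for degradation, fell (-0.37 ± 0.08 SE, adjusted p = 0.0097), and was no longer called without double mutant replicate 4 (adjusted p = 0.052), and without that array the list had 5 called members in place of 8. Principal cell genes had 3 of 16 lower and 1 higher. The water and glycerol channel Aqp3 (-0.59 ± 0.08 SE, adjusted p = 0.000135) and Hsd11b2, which shields the mineralocorticoid receptor from cortisol (-0.49 ± 0.08 SE, adjusted p = 0.00069), fell, and the water channel Aqp4 rose (1.06 ± 0.19 SE, adjusted p = 0.0014).

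Thick ascending limb genes had 5 of 16 higher, 1 lower and a median of 0.15. Cldn16, the tight junction protein of magnesium reabsorption, had 7.86, 7.73, 7.52 and 7.98 in double mutants against 6.33, 6.37, 6.73 and 7.03 in Vhl mutants, 2.24-fold higher (1.16 ± 0.15 SE, adjusted p = 3.57e-05), and its partner Cldn19 rose (0.65 ± 0.14 SE, adjusted p = 0.0054). With arrays averaged per description number 1 member of this list was called, 2 of the distal convoluted tubule and 4 of the intercalated cell list. Proximal tubule genes, the largest class of the cortex, had 5 of 38 lower, 3 higher and a median of -0.03. The phosphate transporter Slc34a3 had 6.98, 7.11, 6.76 and 6.44 in double mutants and 7.90, 7.97, 7.62 and 7.80 in Vhl mutants, 2.02-fold lower (-1.02 ± 0.11 SE, adjusted p = 5.72e-06). The glucose transporter Slc5a2 (-0.57 ± 0.06 SE, adjusted p = 7.42e-06) and the myo-inositol oxygenase Miox (-0.43 ± 0.05 SE, adjusted p = 6.02e-06) fell. Slc34a2, the phosphate transporter of lung and gut, is not in these segment lists and rose 3.78-fold (1.92 ± 0.17 SE, adjusted p = 4.4e-07). It had 6.68, 6.73, 7.07 and 7.53 in double mutants and 5.48, 5.30, 4.81 and 4.84 in Vhl mutants.

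Lists of cell types without Cre differed in their share of calls. Fibroblast and matrix genes had 1 of 29 lower and 0 higher, endothelial markers 1 of 20 lower and 0 higher, and T, B and natural killer cell markers 1 of 18 higher and 1 lower. The plasma cell gene Jchain rose (1.13 ± 0.22 SE, adjusted p = 0.0031) and Cd8a of cytotoxic T cells fell (-0.52 ± 0.11 SE, adjusted p = 0.0041), both without a call when double mutant replicates 3 and 4 were left out together (adjusted p = 0.0807 and 0.0827). Among 24 macrophage markers 4 rose and 2 fell, and 2 were called without double mutant replicates 3 and 4 together. The integrin chain Itgam (0.81 ± 0.16 SE, adjusted p = 0.0026) and the tetraspanin Cd53 (0.45 ± 0.10 SE, adjusted p = 0.0055) rose, while the complement component C1qb, which resident macrophages make, fell (-0.69 ± 0.14 SE, adjusted p = 0.0034). Interferon response genes had 5 of 26 lower, 0 higher and a median of -0.14. Bst2, the membrane tether that holds back budding viruses, had 5.21, 4.85, 3.82 and 4.52 in double mutants against 6.19, 6.15, 6.19 and 5.81 in Vhl mutants, 2.81-fold lower (-1.49 ± 0.23 SE, adjusted p = 0.000319). Rsad2 (viperin, -0.73 ± 0.08 SE, adjusted p = 3.4e-06) and the deISGylase Usp18 (-0.73 ± 0.11 SE, adjusted p = 0.000332) fell as well. The interferon-induced Ifi44l is not in this list and rose (adjusted p = 7.36e-06), with its levels given below. In antigen presentation, 5 of 15 members rose, among them the class II chains H2-Ab1 (0.72 ± 0.14 SE, adjusted p = 0.0025) and H2-Aa (0.49 ± 0.09 SE, adjusted p = 0.0023), and the immunoproteasome subunit Psmb9 fell (-0.54 ± 0.11 SE, adjusted p = 0.0029).

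**Figure D3:**
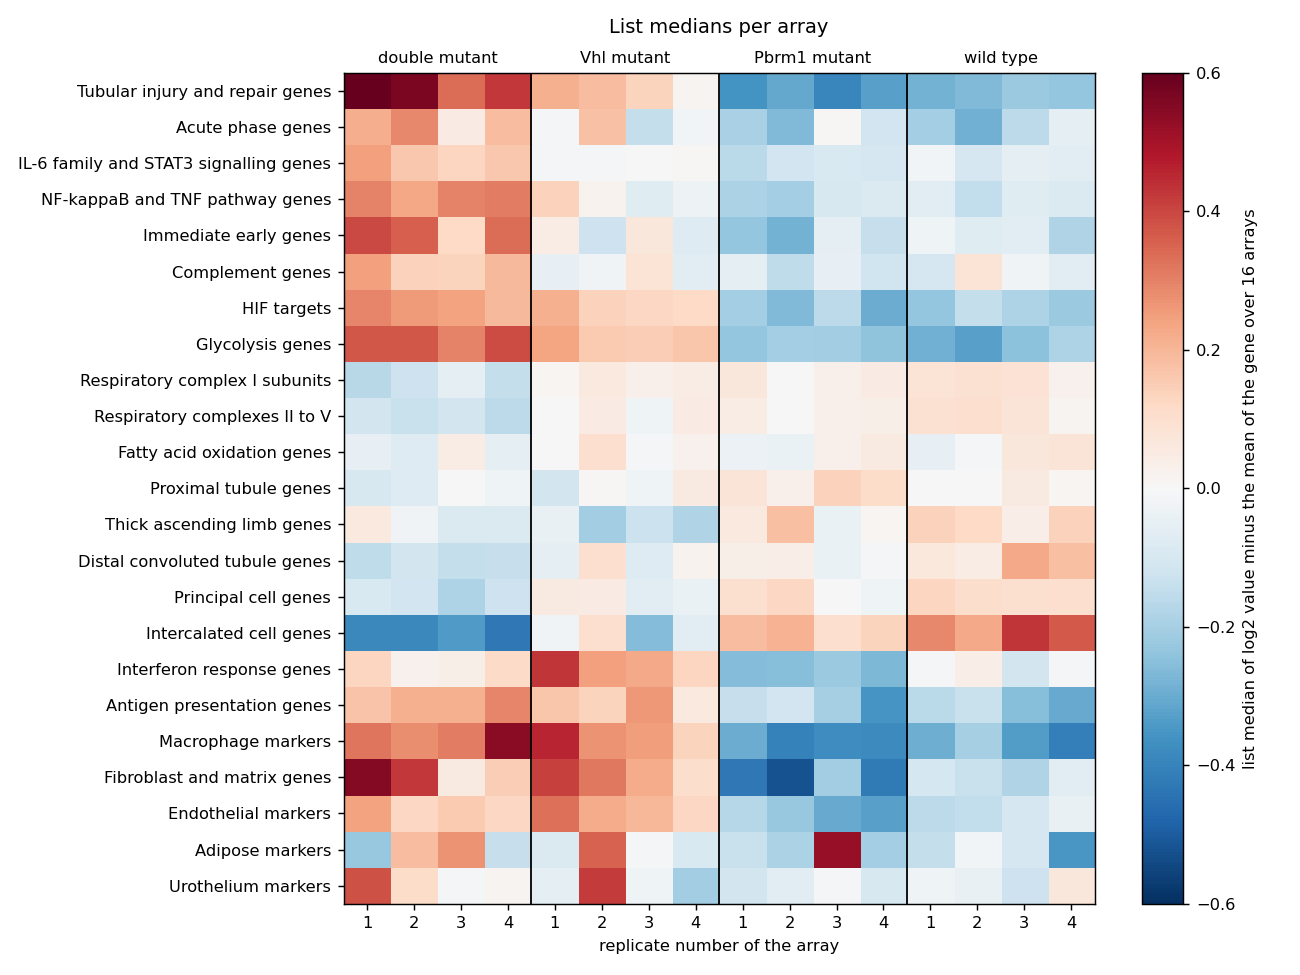
Median over the members of each list (rows) of the log2 value minus the gene's mean over the 16 arrays, per array (columns, numbered within genotype). The tubular injury, STAT3 signalling and glycolysis rows are higher in each double mutant array than in any Vhl mutant array and the intercalated cell row is lower; the adipose row is highest in double mutant replicate 3, Vhl mutant replicate 2 and Pbrm1 mutant replicate 3.

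List medians per array separated the genotypes for some lists and overlapped for others. The tubular injury median, as a deviation from each gene's mean over 16 arrays, lay between 0.34 and 0.60 in double mutant arrays and between 0.01 and 0.21 in Vhl mutant arrays. That of the STAT3 signalling list lay between 0.13 and 0.25 in double mutants and between -0.01 and 0.01 in Vhl mutants. That of intercalated cells lay between -0.43 and -0.34 in double mutants and between -0.26 and 0.10 in Vhl mutants. The acute phase medians overlapped, between 0.05 and 0.29 in double mutants and between -0.14 and 0.17 in Vhl mutants, as did those of HIF targets, thick ascending limb genes and macrophage markers. Tissue at the edge of a dissected cortex also varied: the adipose median lay between -0.23 and 0.27 in double mutants and between -0.09 and 0.35 in Vhl mutants, and the urothelium median between -0.01 and 0.38 in double mutants and between -0.21 and 0.42 in Vhl mutants. These ranges overlap, and 1 of 12 adipose, 0 of 8 adrenal and 0 of 7 urothelium markers were called. Without double mutant replicate 3 and Vhl mutant replicate 2, the arrays of the highest adipose median in each group, 951 genes were called, 585 higher and 366 lower, and 874 of them were among the 1408.

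The comparison of double with Vhl mutants was then set beside that of Pbrm1 mutants with wild type, where Vhl is intact. Pbrm1 mutants against wild type had 895 called genes (4.04%), 352 higher (1.59%) and 543 lower (2.45%); this comparison shares no array with the one above, but it also compares mixed-strain with C57BL/6 mice. Both comparisons called 275 genes, of which 252 changed in the same direction, 122 higher and 130 lower. These 252 are 17.9% of the calls with Vhl deleted and 28.2% of the calls with Vhl intact. Across all genes the 2 sets of log2 fold changes had Pearson r = 0.225, a description over genes that share arrays. The interaction, which is the double mutant minus Vhl mutant difference less the Pbrm1 mutant minus wild-type difference, passed for 583 genes (2.63%), 394 positive (1.78%) and 189 negative (0.852%). Of the 1408 genes above, 358 (25.4%) were also called in it. The strain difference of the wild-type mice enters the interaction too, and there it cannot be told apart from Vhl status.

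**Figure D4:**
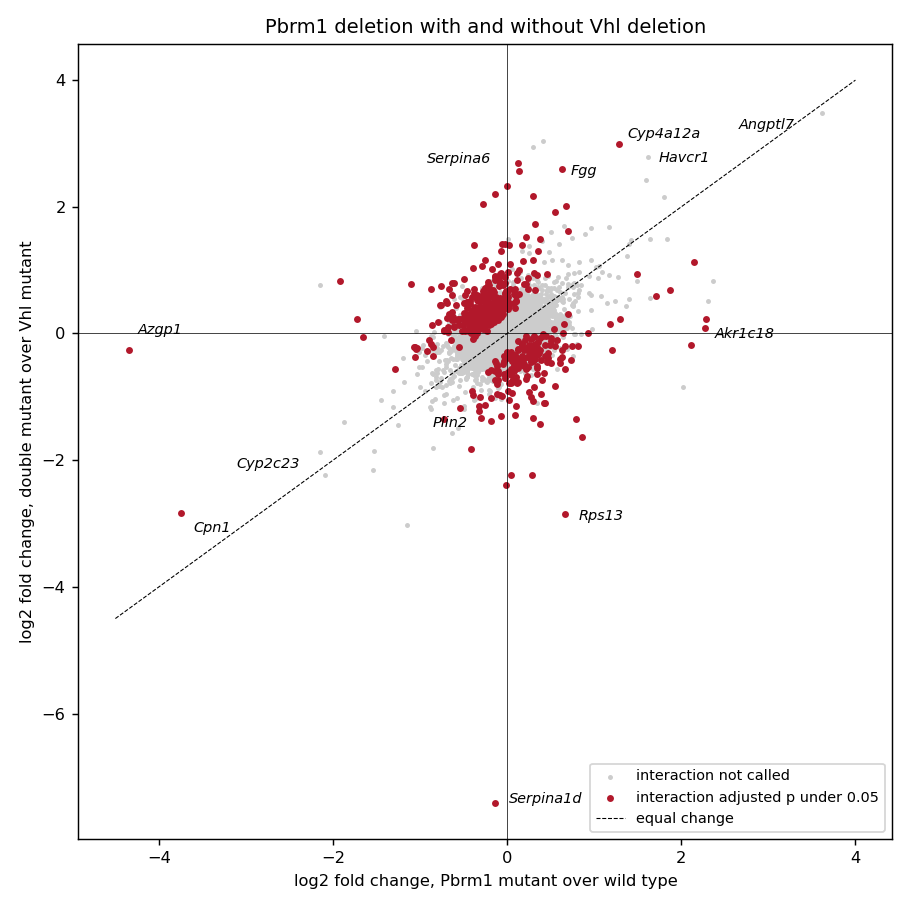
Log2 fold change of each of 22180 genes with Pbrm1 loss where Vhl is deleted (vertical axis) and where Vhl is intact (horizontal axis), as fitted, including genes near background; red points passed the interaction test and the dashed line marks equal change. Angptl7 lies near the line, Azgp1 far to the left and near 0 on the vertical axis, and Serpina1d far below.

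The 11 genes of the largest changes with Pbrm1 loss alone, known from an earlier account of these arrays, fell into classes. Angptl7, a secreted angiopoietin-like protein, rose in both settings: it had 9.53, 9.53, 10.68 and 10.61 in double mutants against 6.38, 6.55, 6.92 and 6.64 in Vhl mutants, a rise of 11.2-fold (3.48 ± 0.21 SE, adjusted p = 2.63e-09). With Vhl intact its log2 fold change was 3.61, and the interaction was -0.13 ± 0.30 SE (adjusted p = 0.888). Cpn1, the catalytic chain of carboxypeptidase N, which trims kinins and anaphylatoxins, had 6.75, 6.68, 6.18 and 6.14 in double mutants and 9.15, 9.42, 9.16 and 9.28 in Vhl mutants, 7.11-fold lower (-2.83 ± 0.17 SE, adjusted p = 2.64e-09). The epoxygenase Cyp2c23 (-1.87 ± 0.23 SE, adjusted p = 2.44e-05), 2610507I01Rik (-2.23 ± 0.14 SE, adjusted p = 4.64e-09) and the phospholyase Etnppl (-1.40 ± 0.14 SE, adjusted p = 1.55e-06) fell in both settings with no called interaction. The collagen VI chain Col6a6 rose in both, by 1.12 ± 0.10 SE on the log2 scale where Vhl is deleted and by 2.14 where it is intact (interaction -1.02 ± 0.14 SE, adjusted p = 0.000465).

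The other 5 of the 11 did not pass where Vhl is deleted. Azgp1, a secreted zinc-binding glycoprotein, had 8.44, 8.45, 8.12 and 8.02 in double mutants against 8.23, 8.32, 8.84 and 8.62 in Vhl mutants (-0.26 ± 0.18 SE, adjusted p = 0.481). In Pbrm1 mutants it had 4.40, 5.24, 5.28 and 5.09, against 9.58, 9.53, 9.20 and 9.07 in wild type, and the interaction of 4.09 ± 0.25 SE was the largest positive one (adjusted p = 5.99e-09). The same held for 3110045C21Rik (interaction 1.95, adjusted p = 1.36e-05) and, in the other direction, for Aldh1a7, a cytosolic aldehyde dehydrogenase (-2.18, adjusted p = 0.000492). Akr1c18, which inactivates progesterone, split the double mutants: replicates 1 and 2 had 7.33 and 7.39 and replicates 3 and 4 had 8.86 and 9.01, against 8.0, 7.60, 8.17 and 8.06 in Vhl mutants (0.22 ± 0.30 SE, adjusted p = 0.76). Without double mutant replicates 1 and 2 it was called (adjusted p = 0.00179). Eddm3b split the same way, with 3.77, 4.15, 5.79 and 5.65 in double mutants and 4.06, 3.81, 3.75 and 4.57 in Vhl mutants (0.82 ± 0.35 SE, adjusted p = 0.194; adjusted p = 0.0295 without double mutant replicate 1).

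**Figure D5:**
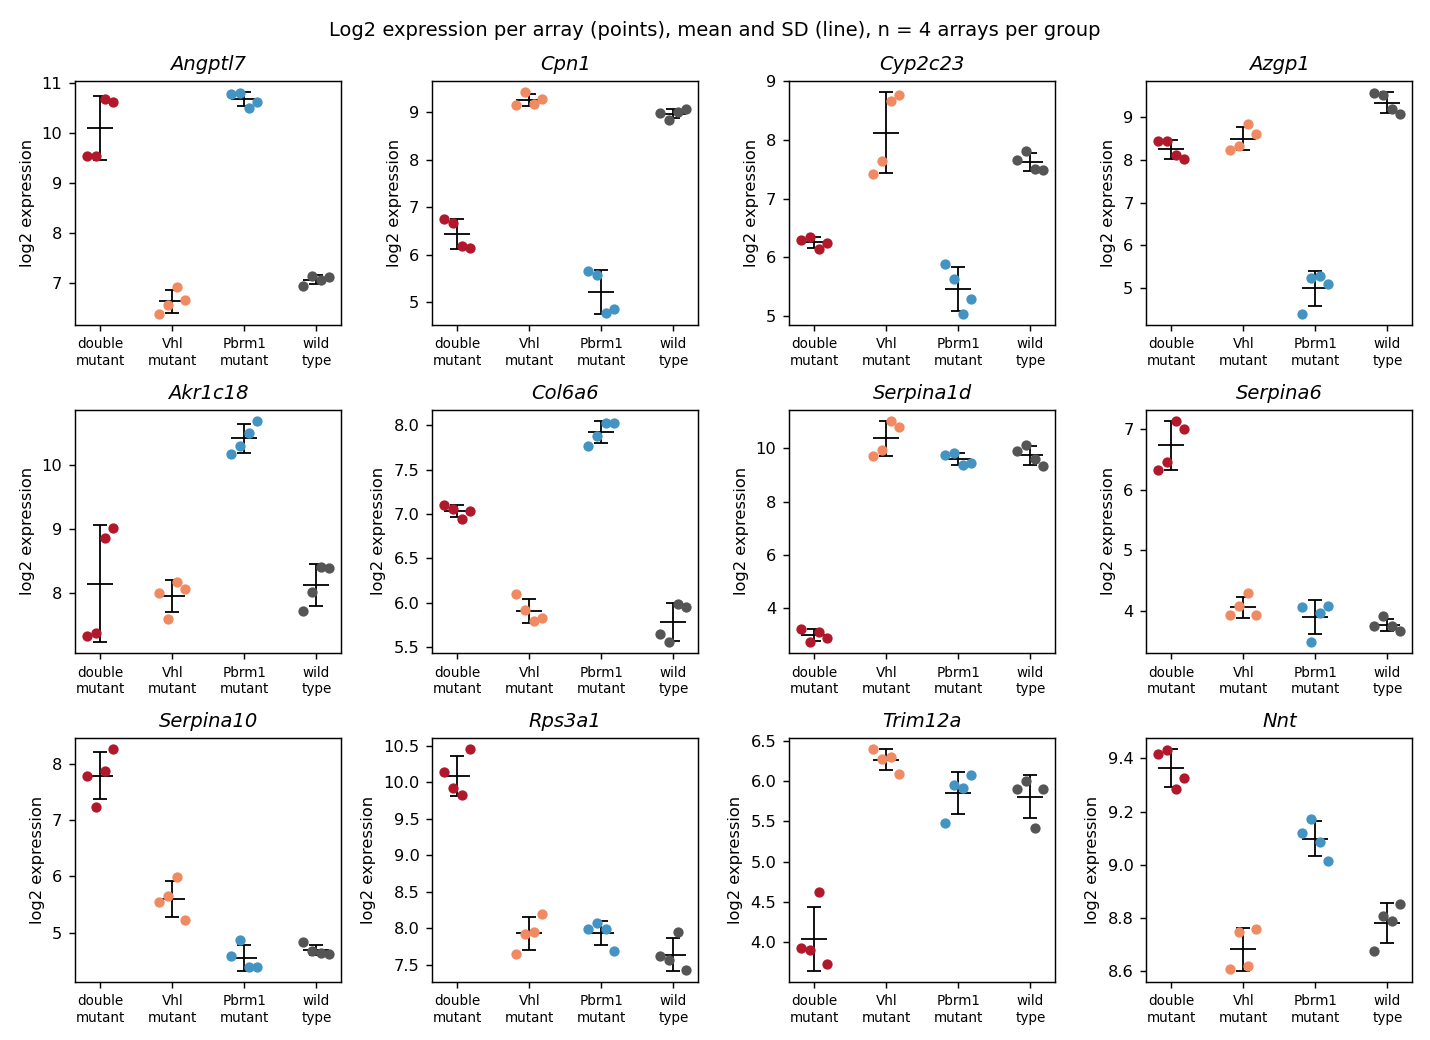
Log2 expression of 12 genes in each of the 16 arrays (points) by genotype, with the mean and SD of 4 arrays. Angptl7, Cpn1 and Cyp2c23 differ between double and Vhl mutants in the direction seen between Pbrm1 mutants and wild type, Azgp1 and Akr1c18 do not, and Serpina1d, Serpina6, Serpina10, Rps3a1 and Trim12a stand apart in double mutants.

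Such splits between double mutant replicates 1 and 2 and replicates 3 and 4, by at least 1 log2 unit with no overlap, concerned 57 genes, against 37 for Vhl mutants, 24 for Pbrm1 mutants and 34 for wild type. Dpys, the dihydropyrimidinase of pyrimidine breakdown, had 5.77, 5.87, 4.56 and 4.56 in double mutants against 6.89, 7.05, 6.90 and 7.03 in Vhl mutants (-1.80 ± 0.24 SE, adjusted p = 5.28e-05). Atp4a, the catalytic chain of the gastric type proton pump, had 6.14, 6.30, 4.76 and 4.83 in double mutants and 7.11, 7.26, 6.81 and 7.0 in Vhl mutants (-1.56 ± 0.27 SE, adjusted p = 0.000817). Both fell in all 4 double mutant arrays, but to different levels within the group.

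The largest single difference was that of Serpina1d, one of the mouse copies of alpha-1-antitrypsin. It had 3.22, 2.71, 3.09 and 2.86 in double mutants, which is below the bound of 3.72 used here for background, against 9.71, 9.92, 11.04 and 10.81 in Vhl mutants (adjusted p = 3.77e-14). Pbrm1 mutants averaged 9.60 ± 0.21 and wild type 9.73 ± 0.34 (SD, n = 4 each), and the interaction had an adjusted p of 3.86e-11. Its neighbour Serpina1c was also at background in double mutants, with 3.14, 2.99, 3.01 and 2.94 against 4.89, 5.21, 6.08 and 5.47 in Vhl mutants (adjusted p = 2.06e-05). Serpina6, the carrier of corticosteroids in blood, rose 6.43-fold, with 6.32, 6.46, 7.14 and 7.0 in double mutants against 3.93, 4.08, 4.30 and 3.93 in Vhl mutants (2.68 ± 0.18 SE, adjusted p = 6.07e-09). Serpina10, an inhibitor of clotting factors, rose 4.59-fold (2.20 ± 0.19 SE, adjusted p = 1.49e-07). These Serpina genes lie in 1 cluster on chromosome 12, where 7 of 20 consecutive genes were called, 3 higher and 4 lower. Copies of Serpina1 are near-identical, and their probe sets may not tell them apart.

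Other genes of this kind showed values in double mutants unlike those of all 3 other groups. The ribosomal protein gene Rps3a1 had 10.14, 9.92, 9.83 and 10.46 in double mutants against 7.65, 7.93, 7.96 and 8.19 in Vhl mutants (2.17 ± 0.14 SE, adjusted p = 4.51e-09), and means of 7.94 in Pbrm1 mutants and 7.64 in wild type. Rps13, another, had 2.74, 2.36, 2.45 and 2.14 in double mutants, below the bound, and 5.12, 5.55, 5.18 and 5.18 in Vhl mutants (adjusted p = 1.46e-10). Ribosomal protein genes have many processed copies, and these 2 probe sets may read them. Rps3a1 has a further, dimmer probe set. Among the alternatives, which include averaged probe sets, its log2 fold change was as low as 1.05 and stayed called. No choice of arrays gives so small a value, so it comes from the average. The dimmer probe set therefore changed far less than the brighter one, on which the call rests. The probe sets of Rps3a1 were not tested one by one. Trim12a (-2.24 ± 0.18 SE, adjusted p = 9.15e-08), the sodium pump partner Nkain1 (-1.82 ± 0.19 SE, adjusted p = 2.01e-06) and the pheromone receptor Vmn1r20 (4.08, 4.08, 3.02 and 2.43 against 5.16, 5.39, 5.67 and 6.13, adjusted p = 0.000391) were lower in double mutants. Hc, complement component 5, rose 5.04-fold, with 5.46, 5.50, 6.50 and 6.95 in double mutants against 3.85, 3.83, 3.69 and 3.84 in Vhl mutants, close to the bound (2.33 ± 0.24 SE, adjusted p = 2.4e-06). The interferon-induced Ifi44l had 4.45, 3.97, 5.58 and 5.02 in double mutants and 2.82, 2.77, 2.81 and 2.49 in Vhl mutants (adjusted p = 7.36e-06), and the sorting receptor Sorcs1 had 4.50, 4.17, 5.58 and 5.17 in double mutants and 3.28, 3.10, 3.21 and 2.96 in Vhl mutants (adjusted p = 6.19e-05). Both are below the bound in Vhl mutants, and so have no fold.

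Some of the largest changes were also called in Pbrm1 mutants against wild type, and others were not. The sulfatase Arsj (2.43 ± 0.17 SE, adjusted p = 1.23e-08), the lysophospholipase D Gdpd3 (2.16 ± 0.13 SE, adjusted p = 2.63e-09) and Ahcy, which clears S-adenosylhomocysteine (2.01 ± 0.16 SE, adjusted p = 9.47e-08), rose where Vhl is deleted. With Vhl intact their log2 fold changes were 1.59, 1.80 and 0.67, each called. Arsj and Ahcy have 2 probe sets each, of which the brighter was used. Among the alternatives, which include averaged probe sets, their log2 fold changes where Vhl is deleted were as low as 1.23 and 0.84. Both stayed called. No choice of arrays gives values so small, so they come from the averages. The dimmer probe set of each gene therefore changed far less than the brighter one, on which the calls rest. The 2 probe sets were not tested one by one. Pttg1, the securin that holds sister chromatids together, fell by 1.86 ± 0.21 SE on the log2 scale (adjusted p = 5.45e-06) and by 1.53 with Vhl intact. Gm3893 fell 8.12-fold (-3.02 ± 0.44 SE, adjusted p = 0.000155), with 4.70, 4.71, 4.52 and 4.41 in double mutants against 7.95, 7.73, 7.29 and 7.43 in Vhl mutants. With Vhl intact it was not called (-1.15, adjusted p = 0.167). Its wild-type arrays had 7.18, 7.06, 4.52 and 4.52, split by description number. 9030619P08Rik fell by 1.63 ± 0.36 SE (adjusted p = 0.007), and was no longer called without double mutant replicates 1 and 2 together (adjusted p = 0.0792). With Vhl intact its log2 fold change was 0.86, in the other direction and not called (adjusted p = 0.218). The chaperone gene Hspa1a had 7.65, 7.53, 6.63 and 6.80 in double mutants against 6.13, 6.13, 6.42 and 6.59 in Vhl mutants. It did not pass (0.82 ± 0.48 SE, adjusted p = 0.379), while its interaction did (2.75 ± 0.68 SE, adjusted p = 0.0338). In wild type Hspa1a had 9.80, 10.02, 7.51 and 7.38, so replicates 1 and 2, which share a description number, lay above 3 and 4.

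Some genes known to differ between inbred strains or between the sexes were among the calls, although the labels give both groups 1 strain mix. Of 11 genes known to vary between strains 5 rose and 0 fell, with a median of 0.28. Nnt, the mitochondrial transhydrogenase in which C57BL/6J mice carry a deletion, had 9.42, 9.43, 9.28 and 9.33 in double mutants against 8.61, 8.75, 8.62 and 8.76 in Vhl mutants (0.68 ± 0.06 SE, adjusted p = 4.74e-07). Wdfy1 (0.90 ± 0.08 SE, adjusted p = 2.12e-07) and the heme synthesis enzyme Alad, whose copy number varies (0.94 ± 0.08 SE, adjusted p = 1.08e-07), rose. Gbp2b had 5.39, 5.19, 5.14 and 4.64 in double mutants and 3.57, 3.17, 4.04 and 3.58 in Vhl mutants (adjusted p = 0.000306). Called genes also lay side by side: in windows of 20 consecutive genes, 10 were called on chromosome 9 beside Col6a6, 8 on chromosome 19 around Cpn1 and Cyp2c23, and 7 each around Rps13 on chromosome 7, Nnt on chromosome 13 and H2-Ab1 on chromosome 17. On chromosome 14, which carries Pbrm1, 7.6% of genes were called, and over the autosomes and X this share ran from 3.67% on X to 8.89% on chromosome 19. The part of strain background in these differences was not tested.

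Of 10 genes that are higher in male mouse kidney 3 rose and of 7 that are higher in female kidney 2 fell. Cyp4a14, described above, is among those that fell. The male-type hydroxylase Cyp4a12a had 7.02, 6.92, 7.53 and 7.27 in double mutants against 3.34, 4.45, 4.0 and 5.0 in Vhl mutants (2.99 ± 0.27 SE, adjusted p = 3.02e-07), and the wild-type mean was 6.54 ± 0.42 (SD, n = 4). The female-type steroid dehydrogenase Hsd3b3 had 5.50, 5.0, 6.0 and 5.45 in double mutants and 6.23, 6.84, 7.23 and 7.41 in Vhl mutants (-1.44 ± 0.23 SE, adjusted p = 0.000397). Of 4 genes of the sex chromosomes themselves 0 were called by limma, with adjusted p between 0.475 and 0.858, and 0 had an unadjusted p under 0.05. Members of the Cyp4a family are near-identical, and their probe sets may not separate them.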

How the data were processed

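Per the labels' protocols, biotin-labelled RNA was put on Affymetrix mouse arrays. The authors deposited log2 values that, according to the submitters' processing notes, came from RMA (background correction, quantile normalization, summary per probe set) in Expression Console 1.4. The array medians ran from 5.18 to 5.27, and precision is limited by how many arrays there are. Of 41345 probe sets, 23521 had 1 gene symbol, 1814 had several and 16010 had no entry in the annotation used; the last 2 classes were left out. Symbols were updated by Entrez ID through RefSeq (GRCm38.p6; 23328 found). For the 1082 genes with more probe sets the one of highest mean was kept, giving 22180 genes with no expression filter. The array's build is not given in the sources used here, so genes have no coordinates. A group mean below 3.72, the highest lower quartile of an array (3.60 to 3.72), was taken as near background, and such genes are given as levels.

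Linear models with the 4 genotypes, taken from the labels, and the description number as a random block (correlation 0.0838) were used in limma 3.58.1 (R 4.3.3), with an intensity trend and 12 residual and 7.73 prior degrees of freedom. Calls are genes with a Benjamini-Hochberg adjusted p under 0.05 over all 22180 genes; every adjusted p in the text comes from this limma fit, or from its refit where an alternative is named. Log2 fold changes give double mutant replicate 4 more weight and are therefore not exactly the differences of means. In data simulated for double against Vhl mutants with 22180 genes, 83.6% of planted 1.5-fold, 95.5% of 2-fold and 100% of 4-fold changes were called, and 4.62% of calls were not planted. The simulated noise was independent between arrays, so these shares do not cover arrays that share an animal or a batch. The members, the 48 gene lists (932 genes, 854 tested) and the rule for named genes were chosen with earlier results of these data known. The rule took both deleted genes, the 15 largest called rises and 15 falls without overlap between the groups, the 6 largest called interactions in each direction, up to 4 called members of each list, 2 uncalled abundant members of 6 lists, and all genes of the Pbrm1-alone and sex chromosome lists; 129 genes are named or checked here. Same-numbered replicates do not pair across groups: their deviations from the group means correlated by -0.03 to -0.01 between double and Vhl mutants. Alternatives were array weights, no trend, quantile normalization, centring, a dim-gene filter, averaged probe sets, no block, a replicate block, averages per description number, double mutant replicate 3 averaged with replicate 2 or moved to the number of replicate 4, a robust fit, only the 2 groups, a 1.5-fold minimum, and leaving out arrays or numbers. Python 3.11.15 with pandas 2.3.3, numpy 2.4.6 and matplotlib 3.10.9 made the tables and figures.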

Additional observations from a re-analysis of the deposited data

Results flagged for a closer look

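For 60 of the 129 genes named or checked the double mutant minus Vhl mutant difference was unlike the Pbrm1 mutant minus wild-type difference. The test was that of the interaction (limma, adjusted p under 0.05), as for the 583 genes counted above, which are 2.63% of all genes. Most of the 129 were picked for a called double mutant minus Vhl mutant difference, and some for a large interaction. That difference is a part of the interaction, so the share and the signs given here follow in part from the choice of genes. Values here are the interaction on the log2 scale. A positive one means a higher log2 fold change of double over Vhl mutants than of Pbrm1 mutants over wild type. Wild-type mice also differ in strain from the 3 mutant groups, so Vhl status and strain cannot be told apart in these values. For genes with a group below the background bound it is a fitted value only. Of these 60, the injury and acute phase genes were positive: Lcn2 1.78, Cdkn1a 0.82, Clu 0.95, Fgg 1.96, Fga 1.32 and Cp 0.82. Havcr1 (1.16, adjusted p = 0.423) and Serpina3n (1.13, adjusted p = 0.107) are not among the 60. The signalling and stress genes Stat3 (0.59), Osmr (0.88), Tnfrsf12a (1.09), Jun (1.38), the matricellular Ccn1 (1.36) and, with the wild-type split given above, Hspa1a (2.75) were positive too. In complement the difference was 2.42 for C4b, 0.42 for Cfb and 2.34 for Hc, and -0.69 for Cd59a. The chemokine Cxcl14 was at -0.61, Rsad2 at -0.63, Itgam at 0.89, Cd53 at 0.53 and Ifi44l at 2.32.

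HIF and glycolysis genes had Plod2 at 0.63, Edn1 at 1.01, Pfkp at 0.77 and Arnt2 at 0.67, with Plin2 at -0.86. The respiratory chain and fatty acid oxidation genes were negative, with Ndufc2 at -1.01, Cox5a at -0.37 and Acaa2 at -0.47. Genes of the nephron segments were mostly negative: Rhcg -0.50, S100g -1.19, Aqp3 -0.48, Hsd11b2 -0.59, Slc34a3 -0.83, Slc5a2 -0.39 and Miox -0.29, with Cldn19 at 0.85. Slc34a2, which is outside the segment lists, was at 1.37. Among genes given singly, Azgp1 had 4.09, Serpina6 2.56, Serpina10 2.33, 3110045C21Rik 1.95, Rps3a1 1.87, Cyp4a12a 1.71, Sorcs1 1.41, Arg2 1.37, Ahcy 1.34, Cpn1 0.92, Alad 0.48 and Nnt 0.36. On the negative side stood Serpina1d with -7.27, Rps13 with -3.52, Vmn1r20 with -2.51, 9030619P08Rik with -2.49, Serpina1c with -2.38, Trim12a with -2.28, Aldh1a7 with -2.18, Akr1c18 with -2.06, Nkain1 with -1.41 and Col6a6 with -1.02.

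In 12 of 258 groups of 4 arrays 1 array stood apart from the other 3 by a gap that exceeded Dixon's 95% critical value, and chance flags about 5% of groups. In double mutants these were Cdkn1a in replicate 1 (8.82, the others 8.55 to 8.59), Fgb in replicate 3 (4.75, the others 5.94 to 6.12), Edn1 in replicate 3 (5.51, the others 6.23 to 6.36), Ndufb9 in replicate 3 (11.67, the others 11.57 to 11.58) and Cox4i1 in replicate 4 (9.74, the others 9.88 to 9.91). In Vhl mutants they were Cd59a (8.27) and Cox5a (9.76) in replicate 1, Rps13 (5.55) in replicate 2, Hc (3.69) in replicate 3, and Bst2 (5.81), Ifi44l (2.49) and 2610507I01Rik (7.15) in replicate 4.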

How the results depend on the processing

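The count of genes called between double and Vhl mutants, 1408, stayed within 1.5 times under most alternatives but was 408 with a 1.5-fold minimum, 710 with arrays averaged per description number, 489 when double mutant replicate 3 was also moved to the number of replicate 4 (an alternative chosen after seeing the data), and 481 without double mutant replicates 1, 2 and 3, where the lone array is assumed to vary like the other groups. Leaving out 1 array at a time gave 1089 to 1376. The 583 interaction genes became 884 with no block, 99 with averaged arrays, 51 with replicate 3 also moved, 337 with no trend, 340 with the 1.5-fold minimum, 303 without the mutant arrays of highest adipose median, in wild type 290 when replicates 1 and 2 were left out and 988 when replicates 3 and 4 were, 236 without double mutant replicates 1, 2 and 3 and 300 without Pbrm1 mutant replicates 3 and 4; without 1 array they ran from 422 to 692. The causes were not tested; averaging and leaving out arrays leave fewer samples. With the replicate number as a block, which the pairing check does not support, the counts were 1702 and 839. Quantile normalization gave 296 positive and 275 negative interactions (51.8% positive against 67.6%), and centring gave 870 genes higher and 482 lower. Of the 106 named genes that were called, 71 kept their call in all of up to 28 alternatives, 35 lost it in at least 1, 12 of these only without double mutant replicates 1, 2 and 3, and 0 changed direction while called. Depth of signal limits the 68 called genes with a group mean below the background bound.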

Other observations

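Other lists not described above also had called members, to be read beside the 6.35% called over all genes. Shares near that were those of cholesterol synthesis (5.56%), neutrophil and mast cell markers (6.67%) and cell cycle genes (6.9%). Renal cancer tumor suppressor genes (7.69%) and SWI/SNF subunits (8.33%) were not far above it. NRF2 targets, the antioxidant genes that this factor drives, had 5 of 16 lower and 0 higher, with a median of -0.12. The glutathione transferase Gsta3 had 6.99, 7.14, 6.52 and 6.08 in double mutants against 7.14, 7.48, 7.74 and 7.68 in Vhl mutants (-0.85 ± 0.19 SE, adjusted p = 0.0066), and the quinone reductase Nqo1 fell (-0.51 ± 0.10 SE, adjusted p = 0.0031). Gsta3 and Nqo1 lost their calls without double mutant replicates 3 and 4 together (adjusted p = 0.133 and 0.0753) and without Vhl mutant replicates 3 and 4 (adjusted p = 0.103 and 0.0654). The list had 3 called members when any 1 of double mutant replicates 3 and 4 and Vhl mutant replicate 4 was left out. Amino acid enzymes had 4 of 24 higher and 1 lower, with 10 called without Vhl mutant replicates 3 and 4 and 2 without double mutant replicates 1, 2 and 3. Arg2, the mitochondrial arginase, had 7.30, 7.10, 7.59 and 7.90 in double mutants against 6.44, 5.94, 6.26 and 6.15 in Vhl mutants (1.29 ± 0.16 SE, adjusted p = 2.06e-05). In cholesterol synthesis 1 of 18 was called, the sterol desaturase Sc5d, which fell (-0.78 ± 0.09 SE, adjusted p = 6.11e-06).

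Cell cycle genes had 2 of 29 lower and 0 higher. They were Mcm6 of the replicative helicase, with 6.18, 6.23, 5.37 and 5.15 in double mutants against 6.79, 6.68, 6.67 and 6.82 in Vhl mutants (-1.03 ± 0.18 SE, adjusted p = 0.001), and the spindle protein Nusap1 (-0.83 ± 0.14 SE, adjusted p = 0.000823). The TGF-beta list had 3 of 20 higher, one of them Ccn1, the secreted matricellular protein CYR61 (1.07 ± 0.21 SE, adjusted p = 0.0027). Without double mutant replicates 1, 2 and 3 none of the list was called (0 by limma; adjusted p = 0.139 for Ccn1). The p53 target list had 2 of 16 higher and 2 lower. Of 24 SWI/SNF subunits 2 rose: Phf10, specific to PBAF (0.30 ± 0.09 SE, adjusted p = 0.0412), and Arid1a, specific to the related complex BAF (0.24 ± 0.06 SE, adjusted p = 0.023). Neither passed with quantile normalization (adjusted p = 0.0835 for Phf10 and 0.0778 for Arid1a). Phf10 also lost its call when any 1 of replicates 1, 2 and 3 of either group was left out (adjusted p between 0.0659 and 0.104), and Arid1a likewise for double mutant replicates 3 and 4 and Vhl mutant replicate 4 (adjusted p between 0.052 and 0.0667). Unfolded protein response genes had 0 of 16 called by limma, with 5 at an unadjusted p under 0.05, and heat shock genes 0 of 11, with 1. Cytochrome P450 genes had 5 of 21 higher and 2 lower, neutrophil and mast cell markers 1 of 15 higher and 0 lower, and renal cancer tumor suppressor genes 1 of 13 higher and 0 lower. In the red blood cell list 1 of 6 genes was measured: Slc4a1, the anion exchanger of red cells and acid-secreting intercalated cells, had 6.19, 6.41, 6.20 and 6.41 in double mutants against 7.32, 7.29, 6.63 and 6.66 in Vhl mutants (-0.66 ± 0.17 SE, adjusted p = 0.0206). It was no longer called when any 1 of replicates 1 and 3 of the double mutants and 1 and 2 of the Vhl mutants was left out (adjusted p between 0.0506 and 0.0716).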
